A study of Homo sapiens with 18 samples.

Results

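Corepressors are proteins that hold genes silent without binding DNA themselves. The 8 corepressor genes described here encode NCOR1, TBL1XR1 and HDAC3 of the NCoR complex, SIN3A with the histone deacetylases HDAC1 and HDAC2, and the C-terminal binding proteins CTBP1 and CTBP2. They were chosen by name, 8 of 19974 annotated protein-coding genes, and each was given a window that ran from 50 kb before the gene to 50 kb after it. Peaks of TLE3 and FOXA1 were assigned to a gene where the peak's centre fell in that window. The values are places where the factors were found on the genes and say nothing of how much RNA or protein the genes made.

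TLE3 belongs to the Groucho family of corepressors, which are brought to DNA by partner transcription factors and which bind histone deacetylases. FOXA1 is a forkhead factor that opens chromatin in luminal breast cells. In the NCoR complex, NCOR1 is the scaffold, TBL1XR1 is a WD-repeat subunit that takes part in exchanging corepressors for coactivators, and HDAC3 is the catalytic subunit. SIN3A is the scaffold of a second complex, in which HDAC1 and HDAC2 remove acetyl groups from histones. CTBP1 and CTBP2 are NAD-binding proteins that link sequence-specific repressors to histone-modifying enzymes.

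Chromatin immunoprecipitation followed by sequencing was carried out in 3 established breast cancer lines. The TLE3 groups were MDA-MB-453, SKBR3 and T47D cells immunoprecipitated with a Proteintech antibody, and these cells were given an extra crosslinker before formaldehyde. The FOXA1 groups were the same lines immunoprecipitated with a Diagenode antibody. MDA-MB-453 and SKBR3 lack the estrogen receptor, SKBR3 carries an amplified ERBB2, and T47D expresses the estrogen receptor. No treatment or genetic change is named in the labels. Each group had 2 libraries that the labels call biological replicates, without saying how they were grown, so p-values measure the spread between these libraries. The factor cannot be told apart from the antibody and the extra crosslinker. The 6 input samples were not analysed here, and the lines were not checked against marker RNA, which the lists do not hold.

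The TLE3 lists held 21149 to 94363 peaks and the FOXA1 lists held 107598 to 188029. The lists carry no read counts. The depth is therefore unknown, and a longer list cannot be told apart from deeper sequencing. The library labelled SKBR3 TLE3 replicate 2 stood apart, with 94363 peaks beside 21149 in replicate 1. In the windows of the 8 genes, 24 of its 76 peaks (31.6%) overlapped a FOXA1 site of SKBR3, against 16 of 16 peaks of replicate 1. Counts and shares of TLE3 sites in SKBR3 are therefore given with both replicates and with replicate 1 alone. A site is a region with a peak in both replicates of a group, so replicate 1 alone contributes its peaks as sites. The share of a library's peaks that fell in the 8 windows was 6.61 to 8.96 per 10000 listed peaks in TLE3 libraries and 7.19 to 8.15 in FOXA1 libraries.

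Annotated starts are shown first for the genes on which TLE3 lay directly at the start. Each sequence is RefSeq's, on GRCh38.p14 (hg38), from 250 bases before the start to 50 after it, and is written 5′ to 3′ on the gene's strand. Capitals mark CG dinucleotides, the pairs that are dense in CpG islands.
TBL1XR1, minus strand, chr3:177197433-177197732: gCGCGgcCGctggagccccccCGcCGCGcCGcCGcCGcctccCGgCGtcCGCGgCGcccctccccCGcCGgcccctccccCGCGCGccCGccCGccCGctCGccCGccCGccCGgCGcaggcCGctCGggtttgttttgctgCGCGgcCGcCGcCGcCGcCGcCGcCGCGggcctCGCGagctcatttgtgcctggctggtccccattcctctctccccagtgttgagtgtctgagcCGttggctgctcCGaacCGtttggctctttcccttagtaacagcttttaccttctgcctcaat
CTBP2, minus strand, chr10:125160981-125161280: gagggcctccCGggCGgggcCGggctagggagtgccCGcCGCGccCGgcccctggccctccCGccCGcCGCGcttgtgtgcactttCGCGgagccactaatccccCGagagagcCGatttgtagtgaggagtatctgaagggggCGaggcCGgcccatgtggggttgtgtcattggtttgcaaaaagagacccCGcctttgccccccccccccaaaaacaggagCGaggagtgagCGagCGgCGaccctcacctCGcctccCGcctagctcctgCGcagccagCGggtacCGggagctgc
HDAC1, plus strand, chr1:32291833-32292132: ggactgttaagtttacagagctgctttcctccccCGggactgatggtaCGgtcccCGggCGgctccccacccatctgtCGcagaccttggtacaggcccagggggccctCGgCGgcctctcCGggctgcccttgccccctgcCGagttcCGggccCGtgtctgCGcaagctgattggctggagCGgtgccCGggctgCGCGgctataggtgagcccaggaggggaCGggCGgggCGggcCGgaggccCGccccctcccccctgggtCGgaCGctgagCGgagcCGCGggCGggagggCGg
CTBP1, minus strand, chr4:1249081-1249380: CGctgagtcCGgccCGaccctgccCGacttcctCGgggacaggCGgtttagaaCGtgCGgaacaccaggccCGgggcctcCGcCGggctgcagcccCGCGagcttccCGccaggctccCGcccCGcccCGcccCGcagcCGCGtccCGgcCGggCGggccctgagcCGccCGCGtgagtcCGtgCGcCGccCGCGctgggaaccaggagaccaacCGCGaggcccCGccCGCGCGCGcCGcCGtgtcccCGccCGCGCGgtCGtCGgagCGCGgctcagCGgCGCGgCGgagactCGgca
These stretches were rich in G and C. The GC content was 75.0% at TBL1XR1, 69.7% at CTBP2, 73.7% at HDAC1 and 80.7% at CTBP1, against a median of 58.7% over 34961 annotated promoters of the same length. They held 44, 27, 28 and 53 CG dinucleotides in that order, against a median of 14. High GC was also found at starts with little or no TLE3. The only HDAC3 start had a GC content of 74.0% and 31 CG dinucleotides, with a TLE3 peak in 0 of 6 libraries. The NCOR1 start chr17:16215485-16215784 had 72.7% and 35, with a TLE3 peak in 1 of 6. The other start of NCOR1 lay in a stretch with no CG dinucleotide and a GC content of 26.3%, and none of the 12 libraries had a peak there. Its capitals mark the letters that matched the searched motifs.
NCOR1, minus strand, chr17:16194590-16194889: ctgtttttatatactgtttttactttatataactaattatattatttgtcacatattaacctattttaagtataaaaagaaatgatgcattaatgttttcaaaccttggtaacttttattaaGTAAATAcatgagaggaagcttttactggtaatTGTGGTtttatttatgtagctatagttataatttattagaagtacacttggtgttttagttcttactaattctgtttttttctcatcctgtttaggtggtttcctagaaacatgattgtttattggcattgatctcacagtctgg
The forkhead family was searched as TGTTTAC, as the variant spelled TATTTAC, and as the further variant spelled TGTTTGC. The RUNX family was searched as TGTGGT. Both strands were read, and no forkhead match overlapped a RUNX match here. Forkhead letters occurred in 9.56% and RUNX letters in 13.1% of all promoters. The NCOR1 stretch held 1 match of each, in a place with no listed peak of either factor. The 4 starts above held none. A second CTBP2 start, chr10:125158728-125159027, held 1 RUNX match and had a TLE3 peak in 3 of 6 libraries. The CTBP1 starts chr4:1249941-1250240 and chr4:1250306-1250605 each held 1 RUNX match and had no peak of either factor. A match is only a run of letters.

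TLE3 lay on 5 of the 8 genes in MDA-MB-453, on 3 in SKBR3 (4 by replicate 1 alone) and on 7 in T47D. CTBP2, TBL1XR1 and HDAC1 had a TLE3 site in each of the 3 lines, and HDAC3 had a TLE3 site in none. Among all protein-coding genes, 55.3% had a TLE3 site in MDA-MB-453, 35.3% in SKBR3 (57.3% by replicate 1 alone) and 74.7% in T47D. Restricted to genes with windows between 116 and 286.4 kb, the range of the 8 genes, the shares were 60.1%, 37.1% (61.3% by replicate 1 alone) and 78.6%. As a group the 8 genes therefore held TLE3 about as often as other genes. FOXA1 sites were present at 8, 7 and 8 of the 8 genes in the lines in that order, beside 95.1%, 89.8% and 95% of all protein-coding genes. The exception was CTBP1 in SKBR3.

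**Figure D1:**
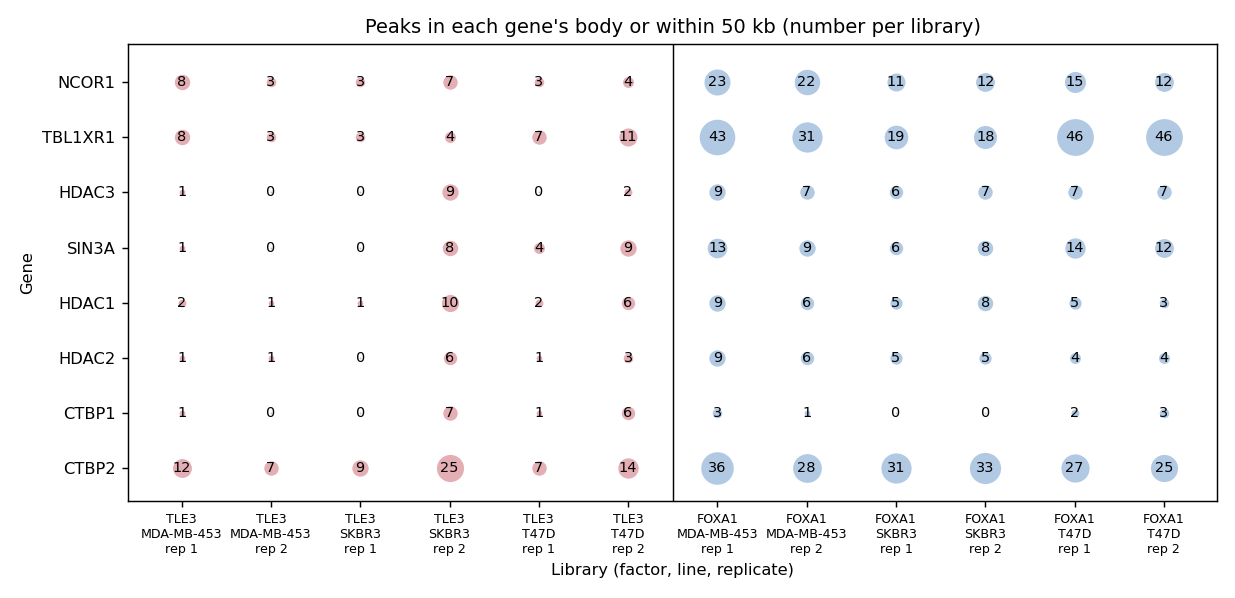
Number of peaks whose centre lies in each gene's body or within 50 kb, per library, with the area of each circle in proportion to the number. TLE3 libraries are on the left and FOXA1 libraries on the right. CTBP2 has 7 to 25 TLE3 peaks and 25 to 36 FOXA1 peaks, and the CTBP1 row has at most 3 FOXA1 peaks.

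The windows of all 8 genes together held 14 TLE3 sites in MDA-MB-453, 9 for SKBR3 (16 by replicate 1 alone) and 22 for T47D. They held 92, 73 and 87 FOXA1 sites, by line in that order. Most TLE3 sites lay inside the genes, at 11 of 14 for MDA-MB-453, 7 of 9 for SKBR3 (13 of 16 by replicate 1 alone) and 16 of 22 for T47D. So did most FOXA1 sites, at 66 of 92, 52 of 73 and 60 of 87 in those lines. The gene body filled 186.4 of 286.4 kb of the NCOR1 window, 182.5 of 282.5 kb at TBL1XR1 and 178.1 of 278.1 kb at CTBP2. At HDAC3 it filled 16 of 116 kb. Whether sites favoured the gene bodies beyond their length was not tested. The annotated start nearest to a TLE3 site belonged to the corepressor gene itself at 13 of 14, 8 of 9 (14 of 16 by replicate 1 alone) and 17 of 22 sites. Exons were not annotated in the tables used here, so a site is placed in the gene body, in the flank or at a start.

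NCOR1, the scaffold of the NCoR complex, lies on chr17:16029157-16215534 on the minus strand. Its window held 8 and 3 TLE3 peaks in the MDA-MB-453 replicates, 3 and 7 in SKBR3, and 3 and 4 in T47D. It held 23 and 22 FOXA1 peaks in MDA-MB-453, 11 and 12 in SKBR3, and 15 and 12 in T47D. Every FOXA1 library thus had more peaks there than any TLE3 library, but the FOXA1 lists were also longer. Scaled to 10000 listed peaks, the window averaged 1.17 TLE3 and 1.09 FOXA1 peaks, so FOXA1 was not in excess. The TLE3 sites numbered 3 in MDA-MB-453, 0 in SKBR3 (3 by replicate 1 alone) and 3 in T47D. A pair of sites in the gene body recurred. One lay at chr17:16160941-16161436 in MDA-MB-453 and at chr17:16160987-16161368 in T47D, about 54.3 kb from the gene's 5′ end. The other lay at chr17:16171516-16172076 in MDA-MB-453 and at chr17:16171457-16172230 in T47D, where its mean score percentile within its lists was 77.8 and 93. A score percentile is the rank of a peak's deposited score within its own list, with 100 the highest. SKBR3 replicate 1 had a peak at both places, replicate 2 had one at the first that did not meet that of replicate 1, and FOXA1 had a site at both in all 3 lines. Neither place was at an annotated NCOR1 start. The third T47D site, chr17:15999517-15999946, had its centre 28 bp from the start of ZSWIM7, a neighbour inside the window, and had no FOXA1 site of T47D.

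TBL1XR1, which lies on chr3:177019344-177201800 on the minus strand, had 8 and 3 TLE3 peaks in MDA-MB-453, 3 and 4 in SKBR3 and 7 and 11 in T47D. Its FOXA1 peaks numbered 43 and 31 in MDA-MB-453, 19 and 18 in SKBR3 and 46 and 46 in T47D. The T47D FOXA1 values were the highest of any of the 8 genes, and 34 FOXA1 sites remained when both replicates were required. Only 1.16% of protein-coding genes had as many FOXA1 sites in T47D, and 2.74% had as many per kb of window. The TLE3 sites numbered 3 for MDA-MB-453, 2 for SKBR3 (3 by replicate 1 alone) and 5 for T47D. The start shown above was the constant feature, because all 6 TLE3 libraries and all 6 FOXA1 libraries had a peak over it. The TLE3 score percentiles there were 62.1 and 31.3 in MDA-MB-453, 5.0 and 37.8 in SKBR3 and 88.0 and 94.7 in T47D. The FOXA1 percentiles were 67.0 and 60.8 in MDA-MB-453, 13.7 and 49.2 in SKBR3 and 95.7 and 64.5 in T47D. The peaks over this start therefore ranked higher in T47D than in SKBR3 in both factors. A percentile belongs to the whole peak, not to the start alone. The T47D TLE3 site there, chr3:177196420-177199479, was 3060 bp wide, against 637 bp in MDA-MB-453 and 807 bp in SKBR3 (278 bp by replicate 1 alone). Further TLE3 sites lay in the gene body at chr3:177154834-177155133 in MDA-MB-453 and chr3:177154488-177155294 in T47D, and 10.4 kb before the gene at chr3:177211731-177212691 in MDA-MB-453. The upstream site recurred in T47D and in SKBR3 replicate 1.

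**Figure D2:**
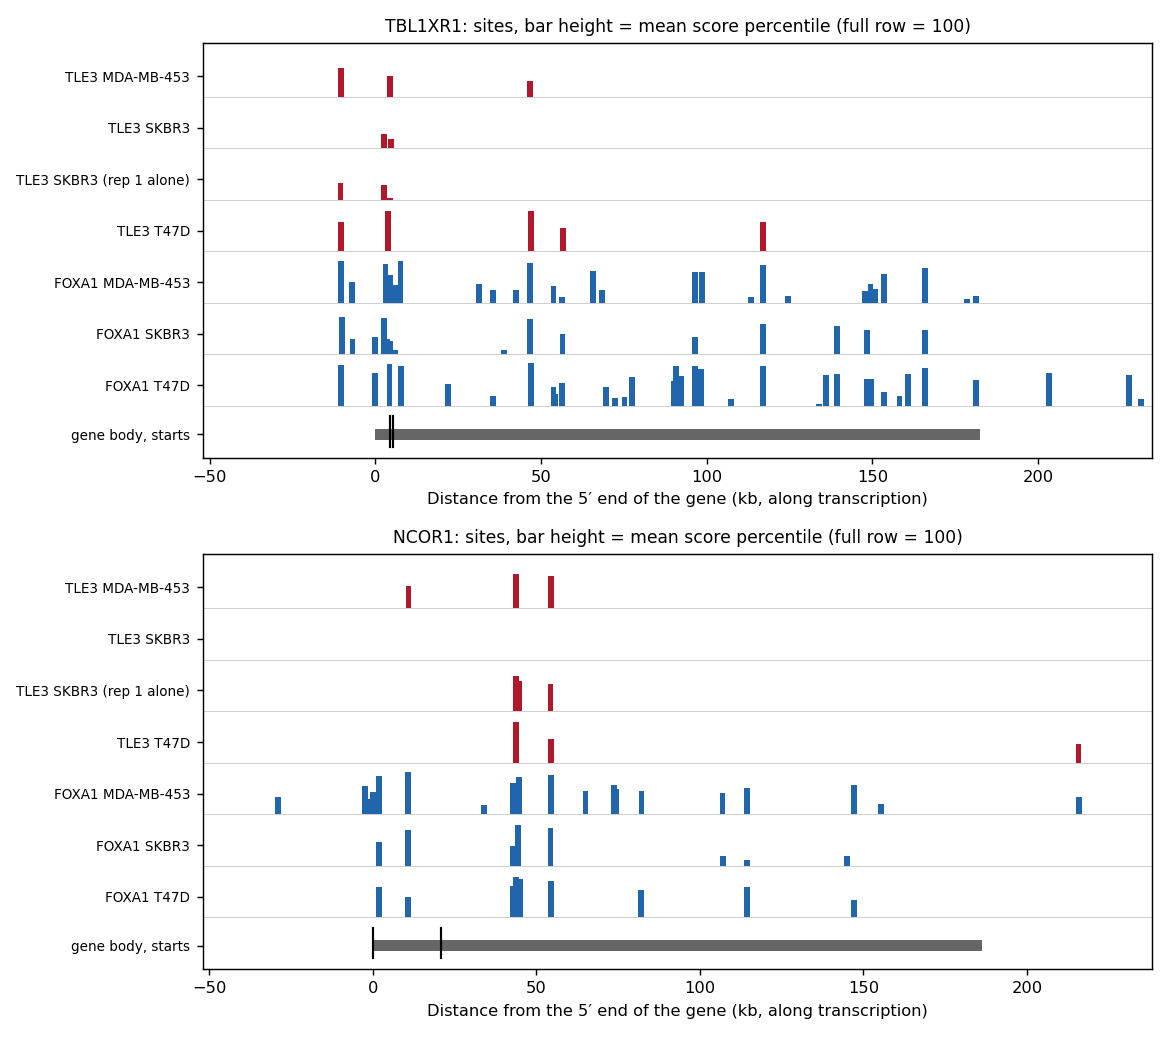
Sites of TLE3 (red, upper rows) and FOXA1 (blue, lower rows) around TBL1XR1 and NCOR1, by distance from the 5′ end of the gene in kb along transcription. Bar height is the mean score percentile of the site in its own lists and bar width is fixed, wider than the sites, with the gene body as a grey bar and annotated starts as black ticks. TLE3 lies at the TBL1XR1 start in each line, while the repeated NCOR1 sites lie inside the gene, and the SKBR3 row of NCOR1 is empty unless replicate 1 is taken alone.

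HDAC3, the deacetylase that works within the NCoR complex, lies on chr5:141620881-141636849 on the minus strand and was the gene with the fewest TLE3 peaks outside 1 library. Its TLE3 peaks numbered 1 and 0 in MDA-MB-453, 0 and 9 in SKBR3 and 0 and 2 in T47D. The 9 came from SKBR3 replicate 2, and 1 of them overlapped a FOXA1 site. Its FOXA1 peaks numbered 9 and 7 in MDA-MB-453, 6 and 7 in SKBR3 and 7 and 7 in T47D. Apart from that SKBR3 library, the TLE3 and FOXA1 libraries did not overlap, but the FOXA1 lists were also longer. Scaled to 10000 listed peaks, TLE3 reached 0.326 in the other libraries and 0.954 in that library, and FOXA1 ran from 0.457 to 0.6. How many other genes separate in this way was not counted. The difference over all 12 libraries was not called (limma adjusted p = 0.161). FOXA1 had 5, 6 and 6 sites in the 3 lines, and none of them lay in the gene body. Several lay next to other genes, such as chr5:141618912-141619278 in MDA-MB-453, with its centre 95 bp from a start of DIAPH1, which encodes an actin-nucleating formin.

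SIN3A, on chr15:75369379-75455815 on the minus strand, is the scaffold of the SIN3 complex, and TLE3 sites were found on it in T47D alone. Its TLE3 peaks numbered 1 and 0 in MDA-MB-453, 0 and 8 in SKBR3 and 4 and 9 in T47D. The T47D libraries and SKBR3 replicate 2 were thus high and the other 3 TLE3 libraries low. Its FOXA1 peaks numbered 13 and 9 in MDA-MB-453, 6 and 8 in SKBR3 and 14 and 12 in T47D. The T47D TLE3 sites were chr15:75450390-75451400 and chr15:75453727-75455002 inside the gene and chr15:75493749-75494112 before it, with mean score percentiles of 76.6, 38.4 and 67.2. FOXA1 had a site at the same places in all 3 lines. FOXA1 also covered the annotated start chr15:75451641-75451940 in 6 of 6 libraries, whereas TLE3 covered it in 1 of 6, T47D replicate 2.

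HDAC1, on chr1:32292083-32333626 on the plus strand, carried a compact TLE3 site just upstream of its start in every line. Its TLE3 peaks numbered 2 and 1 in MDA-MB-453, 1 and 10 in SKBR3 and 2 and 6 in T47D. Its FOXA1 peaks numbered 9 and 6 in MDA-MB-453, 5 and 8 in SKBR3 and 5 and 3 in T47D. The recurring site lay at chr1:32290191-32290831 in MDA-MB-453, chr1:32290186-32290885 in SKBR3 and chr1:32290198-32290744 in T47D. Its centre was 1572, 1547 and 1612 bp before the HDAC1 start in those lines. The TLE3 score percentiles were 94.9 and 84.4 in MDA-MB-453, 93.2 and 48.6 in SKBR3 and 77.3 and 89.1 in T47D, so the site ranked high in 5 of 6 libraries. The FOXA1 site at the same place had mean percentiles of 98.5, 94.5 and 93. FOXA1 sites of similar rank inside HDAC1, at chr1:32309834-32310492 in MDA-MB-453 (91.7) and chr1:32309830-32310493 in T47D (95), had no TLE3 site. In T47D a second TLE3 site, chr1:32291831-32292125, lay on the start shown above, at percentiles of 36.5 and 22.6, where FOXA1 had a site in MDA-MB-453 but not in T47D. Of the T47D FOXA1 libraries, replicate 1 had a peak on that start, at a percentile of 36.3, and replicate 2 had none.

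HDAC2, the close paralogue of HDAC1, lies on chr6:113933028-113971148 on the minus strand. Its TLE3 peaks numbered 1 and 1 in MDA-MB-453, 0 and 6 in SKBR3 and 1 and 3 in T47D, and its FOXA1 peaks numbered 9 and 6, 5 and 5, and 4 and 4 in the same lines. The TLE3 values were low except in SKBR3 replicate 2. A single TLE3 site was found, at chr6:114007563-114008047 in MDA-MB-453 and chr6:114007529-114007951 in T47D, about 36.6 kb before the gene. FOXA1 had a site there in both lines and none in SKBR3.

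CTBP1, on chr4:1211445-1250355 on the minus strand, had the fewest FOXA1 peaks of the 8 genes. Its window held 1 and 0 TLE3 peaks in MDA-MB-453, 0 and 7 in SKBR3 and 1 and 6 in T47D, against 3 and 1 FOXA1 peaks in MDA-MB-453, 0 and 0 in SKBR3 and 2 and 3 in T47D. None of the TLE3 peaks in any of the 6 libraries overlapped a FOXA1 site of its line. The single TLE3 site, chr4:1249124-1249591 in T47D, lay over the start shown above, with its centre 82 bp from the start of CTBP1-DT, a divergent transcript. Its score percentiles were 21.7 and 36.2. FOXA1 had no peak on that start in any of 6 libraries. The few FOXA1 sites lay in the flanks, near MAEA in MDA-MB-453 and near SPON2 in T47D, at mean percentiles of 21.1 and 13.4.

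CTBP2, on chr10:124984317-125162463 on the minus strand, had the most TLE3 sites of the 8 genes in each line. Its TLE3 peaks numbered 12 and 7 in MDA-MB-453, 9 and 25 in SKBR3 and 7 and 14 in T47D. Its FOXA1 peaks numbered 36 and 28 in MDA-MB-453, 31 and 33 in SKBR3 and 27 and 25 in T47D. The TLE3 peaks made 6 sites in MDA-MB-453, 6 for SKBR3 (9 by replicate 1 alone) and 7 for T47D. As many TLE3 sites were found at 3.13% of all protein-coding genes in MDA-MB-453, at 0.65% in SKBR3 (1.35% by replicate 1 alone) and at 5.05% in T47D. Per kb of window the shares were 7.4%, 4.48% (6.4% by replicate 1 alone) and 20.54%, so the gene ranked lower by density than by number.

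High-ranked CTBP2 sites lay at the upstream start and in a stretch downstream. The start shown above was covered by TLE3 at chr10:125160340-125161684 in MDA-MB-453, chr10:125160110-125162052 in SKBR3 and chr10:125160236-125161751 in T47D. All 6 TLE3 and all 6 FOXA1 libraries had a peak there. The TLE3 score percentiles were 78.2 and 78.5 in MDA-MB-453, 65.4 and 66.3 in SKBR3 and 71.0 and 86.2 in T47D, and the FOXA1 percentiles were 97.8 and 95.1, 98.7 and 99.0, and 97.4 and 98.0. The peaks of both factors over the start thus ranked in the upper part of every list. The downstream stretch lay near another annotated start within the gene body, at 125028071, with sites at chr10:125023810-125024976 in MDA-MB-453 and chr10:125034190-125035881 in T47D at mean percentiles of 96.1 and 95.5. SKBR3 replicate 1 had both peaks, at 50.2 and 95.5, and replicate 2 had neither. FOXA1 had sites there in all lines, with mean percentiles at the first place of 99.4 for MDA-MB-453, 87.2 for SKBR3 and 96.5 for T47D. No library of either factor had a peak on the 125028071 start itself. Other TLE3 sites lay between these places, such as chr10:125064578-125065462 in T47D at a mean percentile of 87, which recurred in MDA-MB-453 (39.3) and SKBR3 (42.3, and 60.3 by replicate 1 alone). SKBR3 had further sites, including chr10:125202072-125202415 before the gene.

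**Figure D3:**
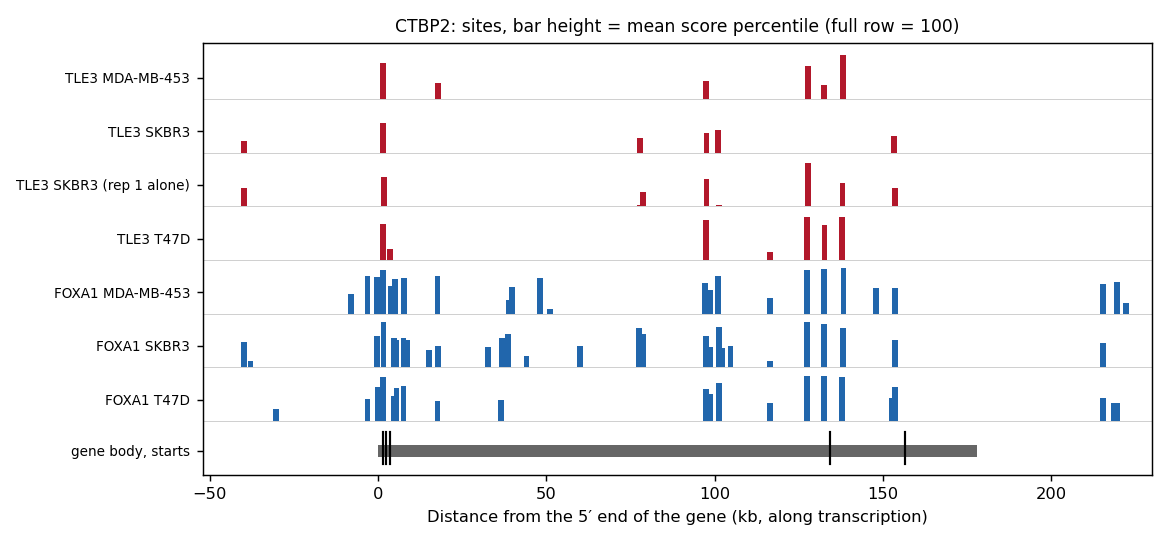
Sites of TLE3 (red, upper rows) and FOXA1 (blue, lower rows) around CTBP2, by distance from the 5′ end of the gene in kb along transcription. Bar height is the mean score percentile, bar width is fixed and wider than the sites, the grey bar is the gene body and black ticks are annotated starts. TLE3 is found at the upstream start in each row, and the sites about 127 to 138 kb into the gene appear in MDA-MB-453, T47D and SKBR3 replicate 1.

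TLE3 on these genes lay mostly on FOXA1 sites. All 14 sites of MDA-MB-453 met a FOXA1 site, with an overlap of 1 bp or more (exact 95% binomial interval 76.8% to 100%), against 99.3% elsewhere in the genome. In SKBR3 it was 9 of 9 (66.4% to 100%), and 16 of 16 by replicate 1 alone, against 91.2% and 93.5% elsewhere. In T47D it was 18 of 22, or 81.8% (59.7% to 94.8%), against 87.0% elsewhere. Each interval includes the value elsewhere, and the intervals cover counting error only, since sites of a gene are not independent. The other T47D sites were those at ZSWIM7, on the HDAC1 start, on the CTBP1 start, and at chr10:125158645-125159307 over a second CTBP2 start. The centres of these 4 lay 28 to 199 bp from an annotated start. They lacked a FOXA1 site, which needs a peak of both replicates, but not always a FOXA1 peak. With T47D FOXA1 replicate 1 alone, 95.5% of the T47D TLE3 sites met FOXA1, and with replicate 2 alone 81.8%. Replicate 1 had a FOXA1 peak on the HDAC1 start and on that second CTBP2 start. By its share, at least 1 of the ZSWIM7 and CTBP1 sites also met a FOXA1 peak of replicate 1, and which was not determined.

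The reverse overlap was low, and the smaller number of TLE3 sites limited it. The windows held 14 TLE3 and 92 FOXA1 sites in MDA-MB-453. In SKBR3 they held 9 (16 by replicate 1 alone) and 73, and in T47D 22 and 87. The share therefore could not be high, and it does not show that TLE3 was absent from the other FOXA1 sites. A TLE3 site was found on 15.2% of the FOXA1 sites of the 8 genes in MDA-MB-453, 12.3% for SKBR3 (20.6% by replicate 1 alone) and 20.7% for T47D, against 15.8%, 7.21% (20.9% by replicate 1 alone) and 21.9% elsewhere. FOXA1 sites with TLE3 ranked higher than those without. Their median score percentile was 93.6 against 50.7 in MDA-MB-453, 83 against 48.4 in SKBR3 (85.7 against 46.6 by replicate 1 alone) and 91.7 against 57.1 in T47D. They were also wider, with medians of 1041 bp against 470.5 bp, 826 bp against 488.5 bp (831 bp against 476.5 bp by replicate 1 alone) and 835.5 bp against 455 bp. Ranges overlapped, since FOXA1 sites without TLE3 reached percentiles of 95.1, 98.8 (96.1 by replicate 1 alone) and 95. A wide site has more room to overlap another, and the part of width was not tested.

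The lines shared a minority of these places. Merged over the lines, the TLE3 sites made 28 regions, of which 4 were found in 3 lines, 8 in 2 lines and 16 in 1 line. With SKBR3 replicate 1 alone there were 30 regions, with 9, 3 and 18 in those classes. The 4 regions were the TBL1XR1 start, the HDAC1 upstream site, the CTBP2 start and a CTBP2 site in the gene body at chr10:125064578-125065462. The FOXA1 sites made 141 regions, with 39 in 3 lines, 22 in 2 and 80 in 1.

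TLE3 was listed directly at a start for 4 of the 8 genes in at least 1 line. A TLE3 site overlapped an annotated start of 2 of the 8 genes in MDA-MB-453, TBL1XR1 and CTBP2, beside 2.28% of 15812 protein-coding genes with an entry. The same 2 genes had one in SKBR3, beside 3.79% (3.5% by replicate 1 alone). In T47D it was 4 genes, with HDAC1 and CTBP1 added, beside 18.6%. FOXA1 sites lay at starts of 5, 3 and 3 of the 8 genes in the 3 lines, beside 37.4%, 17.2% and 31.9%. CTBP2 has 5 annotated starts and the other genes 1 to 3, so CTBP2 had more chances to be counted. Per library, TLE3 peaks lay at starts of 2.14% to 49.5% of genes, and the SKBR3 replicates gave 3.5% and 49.5%.

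**Figure D4:**
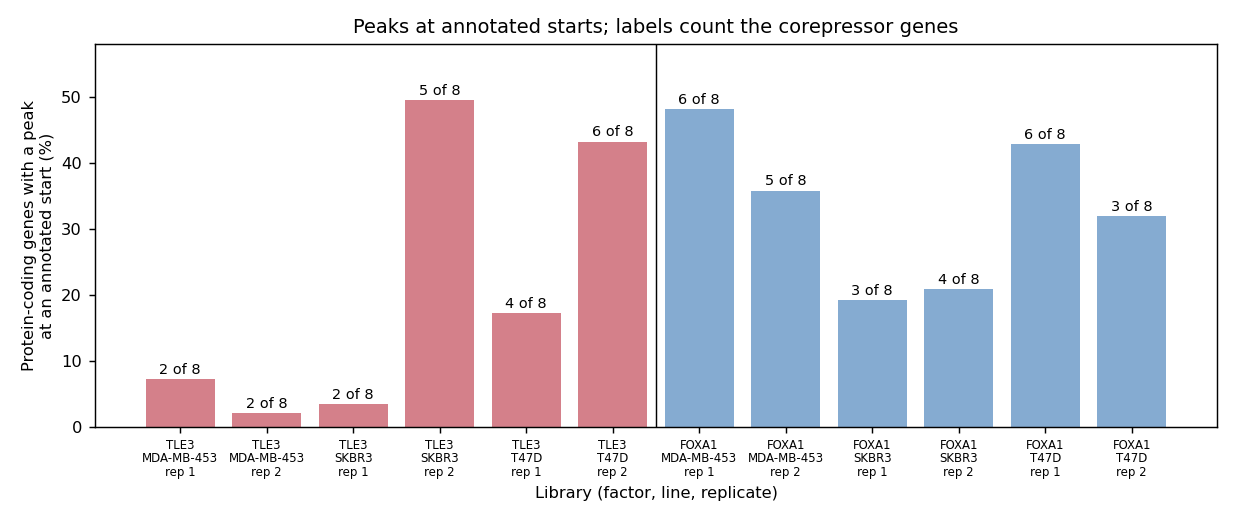
Percent of protein-coding genes with a peak at an annotated start, by library, with TLE3 libraries on the left and FOXA1 libraries on the right. The number of the 8 corepressor genes with such a peak stands above each bar. SKBR3 TLE3 replicate 2, at 49.5%, stands far above replicate 1, at 3.5%.

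To compare the factors across lists of different length, peaks in a window were scaled to 10000 listed peaks and tested over all genes with limma, with line as a term. Values are differences on the log2(peaks per 10000 + 0.1) scale. For low genes they depend on the added 0.1, because a library with 0 peaks enters as its log2. SIN3A, for example, averaged 0.646 TLE3 and 0.713 FOXA1 peaks per 10000 but had a difference of -0.87. None of the 8 genes passed an adjusted p of 0.05, while 4.87% of 17722 genes were called higher for TLE3 and 1.61% lower. An unadjusted limma p under 0.05 was found for 3 of the 8 genes, beside 4327 of the 17722. The median difference of all genes was -0.12, and that of the 8 genes was -0.13.

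CTBP2 and TBL1XR1 had unadjusted p-values of 0.0156 and 0.0115 by limma. CTBP2 had 2.81 and 3.08 TLE3 peaks per 10000 in MDA-MB-453, 4.26 and 2.65 in SKBR3 and 2.32 and 2.28 in T47D. Its FOXA1 values were 1.92 and 1.83 in MDA-MB-453, 2.88 and 2.83 in SKBR3 and 1.83 and 1.68 in T47D. TLE3 was above FOXA1 without overlap in MDA-MB-453 and T47D, and the factors overlapped in SKBR3. The difference was 0.41 ± 0.15 (SE; limma adjusted p = 0.113), but 0.05 with the upper 50% of each list by score (limma adjusted p = 0.909) and 0.27 with equally long lists (0.499). TBL1XR1 had 1.87 and 1.32 TLE3 peaks per 10000 in MDA-MB-453, 1.42 and 0.424 in SKBR3 and 2.32 and 1.79 in T47D. Its FOXA1 values were 2.29 and 2.03, 1.77 and 1.54, and 3.12 and 3.09 in those lines. TLE3 was below FOXA1 in each line without overlap, by -0.66 ± 0.23 (limma adjusted p = 0.0975). The TBL1XR1 difference was -1.10 with the upper 50% of each list by score (limma adjusted p = 0.164) and -0.73 with equally long lists (0.402). The share of all genes whose libraries separate in these ways was not counted. With 2 libraries against 2 in a line, the smallest possible two-sided permutation p is 0.333.

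The remaining genes lay on either side of 0, and NCOR1 and HDAC1 turned negative with equally long lists. The differences were -1.39 ± 0.58 for HDAC3, -0.87 ± 0.56 for SIN3A, -0.30 ± 0.48 for HDAC2, 0.03 ± 0.20 for NCOR1, 0.55 ± 0.32 for HDAC1 and 0.90 ± 0.58 for CTBP1, with limma adjusted p from 0.161 to 0.94. With 0.5 in place of 0.1 added before the log, they were -0.54 for HDAC3, -0.30 for SIN3A, -0.087 for HDAC2, 0.03 for NCOR1, 0.34 for HDAC1 and 0.46 for CTBP1. Without SKBR3 TLE3 replicate 1, SIN3A was at -0.42 and HDAC2 at 0.15. Without SKBR3 TLE3 replicate 2, 3 genes were called: CTBP2 was higher for TLE3 (0.51 ± 0.10, limma adjusted p = 0.00479), and TBL1XR1 (-0.43 ± 0.13, 0.0363) and HDAC3 (-1.86 ± 0.47, 0.0146) were lower. In that fit 10.3% of 17299 genes were called higher and 13.3% lower, the median of all genes was -0.23, and CTBP1 fell below the minimum mean of 2 peaks. The lone SKBR3 TLE3 library was assumed to vary like the others.

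**Figure D5:**
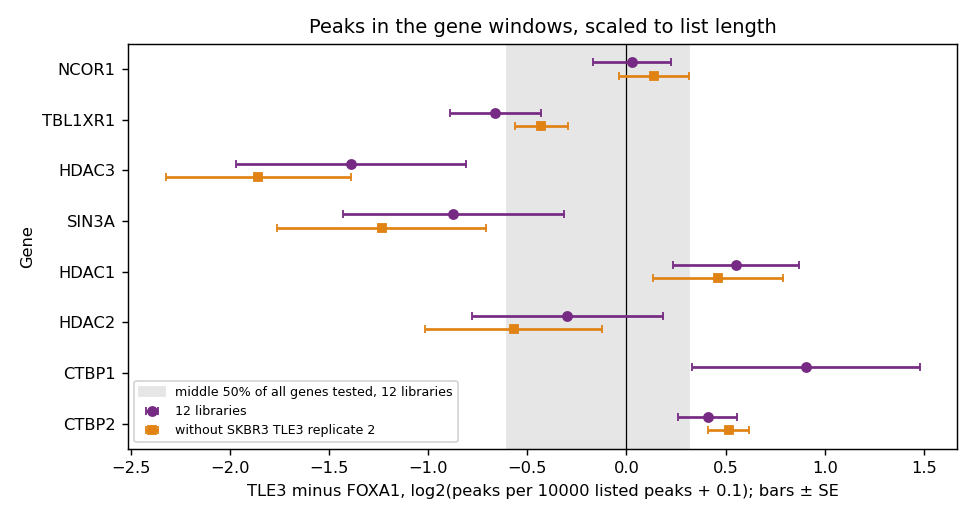
TLE3 minus FOXA1 on the log2(peaks per 10000 listed peaks + 0.1) scale for each gene, with bars of 1 standard error. Circles use 12 libraries and squares leave out SKBR3 TLE3 replicate 2, where CTBP1 was not tested. The grey band holds the middle 50% of all genes, from -0.60 to 0.32. With 12 libraries TBL1XR1, HDAC3 and SIN3A lie to the left of it, and HDAC1, CTBP1 and CTBP2 lie to its right.

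FOXA1 itself was compared between lines in the same scale. No gene of the 8 passed with 12 libraries, where 0.739% of all genes did. The lowest was CTBP2, 0.58 ± 0.23 higher in SKBR3 than in MDA-MB-453 (limma F test over the lines, unadjusted p = 0.0327, adjusted p = 0.306). Without SKBR3 TLE3 replicate 2, whose spread enters the shared error, CTBP2 (adjusted p = 0.0146) and TBL1XR1 (adjusted p = 0.0488) differed between lines by limma, beside 12.3% of all genes. TBL1XR1 FOXA1 was 0.51 higher in T47D and 0.36 lower in SKBR3 than in MDA-MB-453. A difference between lines in TLE3 minus FOXA1 was called for none of the 8 genes with 12 libraries, beside 0.53% of all genes.

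The wider corepressor machinery was covered by 45 further genes of the NCOR, SIN3, NuRD, CoREST and CtBP groups and the other histone deacetylases. TLE3 sites were found at 29 of them in MDA-MB-453, at 28 for SKBR3 (33 by replicate 1 alone) and at 41 in T47D, beside 55.3%, 35.3% (57.3%) and 74.7% of all protein-coding genes, with windows not matched in length. Of 44 tested, 4 were higher for TLE3 and 1 was lower, beside 4.87% and 1.61% of all genes, with a median difference of 0.03. EHMT1, a histone H3 lysine methyltransferase found with CtBP, was higher by 0.98 ± 0.22 (limma adjusted p = 0.0193), and HDAC7, a class IIa deacetylase, by 0.90 ± 0.19 (limma adjusted p = 0.0133).

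NRIP1, a nuclear receptor corepressor that binds CtBP, was the gene called lower. It averaged 0.689 TLE3 and 2.07 FOXA1 peaks per 10000, a difference of -1.55 ± 0.25 (limma adjusted p = 0.00488). It had 28, 16 and 28 FOXA1 sites in MDA-MB-453, SKBR3 and T47D, and 1, 1 and 2 TLE3 sites (1 in SKBR3 by replicate 1 alone). WIZ, a partner of EHMT1, was named after its value was seen and was higher by 0.97 ± 0.18 (limma adjusted p = 0.00773). No gene of the SIN3 or NuRD groups was called with 12 libraries. Those with the most TLE3 sites over the lines were MTA3 (15) and MTA2 (13) of NuRD, and ARID4B (11) of the SIN3 group, followed by BRMS1 and SUDS3 with 5 each. Without SKBR3 TLE3 replicate 2, all 5 called genes passed in the same direction, and 5 of 43 tested were higher and 6 lower, beside 10.3% and 13.3% of all genes. In that fit, named after their values were seen, ARID4A (-1.57) and BRMS1L (-1.76) of the SIN3 group and RBBP7 (-1.54) of NuRD were lower for TLE3, and MTA3 (0.74) of NuRD was higher, with limma adjusted p of 0.00643, 0.0219, 0.0354 and 0.00281 in that order.

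The genes whose peak numbers were most like each corepressor gene over the 12 libraries, on another chromosome, are given as a description. TBL1XR1 was most like MAOA (Pearson r = 0.949), CTBP2 most like MFSD2A (0.959) and NCOR1 most like PDE4B (0.921). SIN3A was most like MCCD1 (0.996), but 611 genes had an r over 0.9 with it, and HDAC3, most like MAP3K7 (0.987), had 276. For HDAC1 it was RNF151 (0.916), for HDAC2 WFDC2 (0.955) and for CTBP1 CHST4 (0.962). Genes with an r over 0.9 numbered 85 for HDAC2, 47 for CTBP2, 21 for CTBP1, 4 for TBL1XR1, 2 for NCOR1 and 2 for HDAC1. The libraries share their lines and factors.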

How the data were processed

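Peak lists of 12 libraries were used, 1 for each immunoprecipitation. The submitters' processing notes name hg38 as the build and MACS2, SAMtools, BWA 0.7.5a and Trim Galore as tools, with no settings. The control of a list and any filter were not given in the sources used here. Every deposited list gives a score per peak, the authors' own value, whose quantity is not named. It served only to rank peaks within a list. Of 1134209 peaks, 15 outside chromosomes 1 to 22 and X were left out.

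Gene positions came from RefSeq's GRCh38.p14 table, and starts from its promoter table, which held all 8 genes. Samples were grouped by line and factor in their titles. Sites, overlaps of at least 1 bp and windows of 50 kb were computed in Python 3.11.15 with pandas 2.3.3. limma 3.58.1 in R 4.3.3 fitted log2(peaks per 10000 + 0.1) on line and factor for genes averaging at least 2 peaks, with a trend in the prior variance, two-sided tests and Benjamini-Hochberg adjustment over all genes. The scripts were tested on simulated data.

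The genes and lists were chosen with earlier results of these data known. Comparisons between lines and of their differences were added after seeing the data. All 8 genes were named, with the single most similar gene of each, and of the other corepressor genes at most 2 called per group by size of difference, or else those with the most TLE3 sites. WIZ and the SIN3 and NuRD genes called without SKBR3 TLE3 replicate 2 were named outside that rule. A result among these is not reported here.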

Additional observations from a re-analysis of the deposited data

Results flagged for a closer look

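TLE3 minus FOXA1 differed between the 3 lines for a pair of genes once SKBR3 TLE3 replicate 2 was left out, by a limma F test of the line by factor term. For SIN3A the adjusted p was 0.0242, and TLE3 peaks per 10000 were 0.234 and 0 in MDA-MB-453, 0 in SKBR3 replicate 1 and 1.33 and 1.47 in T47D, against FOXA1 values of 0.691 and 0.588, 0.558 and 0.685, and 0.951 and 0.805 in those lines. For HDAC2 the adjusted p was 0.0155, and TLE3 values were 0.234 and 0.440, 0, and 0.332 and 0.489, against FOXA1 values of 0.479 and 0.392, 0.465 and 0.428, and 0.272 and 0.268. TLE3 lay above FOXA1 in T47D alone for SIN3A, and for HDAC2 in T47D without overlap. The share of all genes that separate in this way was not counted. In that fit 24.5% of all genes passed, and with 12 libraries the limma adjusted p was 0.497 for SIN3A and 0.717 for HDAC2. These values rest on 0 to 9 TLE3 peaks per library.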

How the results depend on the processing

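In MDA-MB-453, SKBR3 and T47D, keeping the upper 50% of each list by score left 8, 1 and 13 TLE3 sites and 49, 36 and 47 FOXA1 sites on the 8 genes, with 1 gene holding a TLE3 site in SKBR3 and 100% of T47D TLE3 sites on FOXA1. Equally long lists of 21149 peaks gave 15, 14 and 18 FOXA1 sites, 1 TLE3 site at 1 gene in SKBR3, 14 TLE3 sites in T47D, and 58.3% of MDA-MB-453 TLE3 sites on FOXA1, the FOXA1 lists being cut most. Taking sites from either replicate gave 33, 81 and 55 TLE3 sites, 157 FOXA1 sites in MDA-MB-453 and 137 in T47D, a TLE3 site at 8 genes in MDA-MB-453 and in SKBR3, and 39.5% of SKBR3 TLE3 sites on FOXA1. With centres within 250 bp, 71.4% of MDA-MB-453 and 68.2% of T47D TLE3 sites lay on FOXA1. Leaving out 1 library at a time gave 15 to 34, 16 to 76 and 25 to 55 TLE3 sites, 110 to 145 FOXA1 sites in MDA-MB-453, 5 to 8 and 4 to 8 genes with a TLE3 site in MDA-MB-453 and SKBR3, and 94.1% to 100%, 31.6% to 100% and 65.5% to 95.5% of TLE3 sites on FOXA1.

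Of all genes, 1148 were called by limma between TLE3 and FOXA1. The number was 299 with the upper 50%, 313 with equally long lists, 597 in windows of 10 kb and 444 to 4079 with 1 library left out. Permuting the factor labels exactly within each line (two-sided) called 0 genes after adjustment and 3917 at an unadjusted p under 0.05, and its smallest possible p is 0.00926. With a replicate block 528 genes were called and none of the 8. Same-numbered libraries deviated together with correlations of 0.0365, 0.0357 and -0.0338, so the numbers were not taken as pairs. Of the 8 genes, 1 was called in windows of 10 kb (TBL1XR1, -0.81, adjusted p = 0.0383) and 0 to 3 with 1 library left out, 1 without SKBR3 TLE3 replicate 1 (TBL1XR1, -0.81, adjusted p = 0.0335) and 3 without replicate 2. The 597 genes called in windows of 10 kb were among 10168 tested, and HDAC2 and CTBP1 were not tested there. TBL1XR1 was not called with the upper 50% or with equally long lists. A fit without either SKBR3 TLE3 replicate leaves 1 library in that group, assumed to vary like the others. The NCOR1 difference changed sign with equally long lists (-0.44), in windows of 10 kb (-0.047), and with 1 library left out, where it ran from -0.074 to 0.139. It was negative without MDA-MB-453 FOXA1 replicate 1 or without replicate 1 of TLE3 in MDA-MB-453, SKBR3 or T47D. The HDAC1 difference was -0.85 with equally long lists, and the HDAC2 difference ran from -0.568 to 0.152 with 1 library left out, positive without SKBR3 TLE3 replicate 1. Adding 0.5 instead of 0.1 called 1372 genes and none of the 8. The median of all genes was -0.33 with the upper 50% and 0.0094 with 0.5 added, against -0.12. The causes were not tested. Lists without read counts leave depth unknown, so a missing peak is not evidence of a missing factor.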
